A study of Homo sapiens with 9 samples.

Results

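S100 calcium-binding protein genes were followed in 22Rv1 cells, a human prostate carcinoma line. The members are S100P, S100A2, S100A4, S100A6, S100A10, S100A11, S100A13, S100A14 and S100A16. They are 9 of the 67071 genes in the count table and were matched by symbol to a list drawn up with earlier results of these data in view. The list was chosen by a reading of these libraries with their differences from the control hairpin known, and S100P was among the genes with the largest falls there. The values that put the other 8 on the list are not recorded, so no threshold can be given. The comparisons with the control hairpin are therefore given for these genes as levels and fold changes, without a test. The 12 other S100 genes, genes linked to S100 proteins and the difference between the CHD9 hairpins were tested. The 12 are those that the list left out, and the lists of linked genes were also drawn up with earlier results known. Their p-values do not allow for that choice.

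RNA from polyadenylated transcripts was sequenced in 9 libraries, 3 from cells with hairpin 1 against CHD9 (shCHD9_1), 3 from cells with hairpin 2 against CHD9 (shCHD9_2) and 3 from control cells with a hairpin against GFP (shGFP), labelled wild type. CHD9 is a chromodomain helicase that remodels chromatin, and the study set its knockdown against the control knockdown. All cells grew in RPMI medium with serum, and the labels give neither the time after delivery of the hairpins nor whether replicates were separate cultures. The p-values thus rest on the variation among libraries alone, part or all of which may be technical. Total counts ran from 18911142 to 31968602 per library, and a count of 3 was worth 0.0924 to 0.158 CPM (counts scaled to a common library total).

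CHD9 mRNA checked the labels. It stood at 14.8, 16.7 and 14.9 CPM with hairpin 1, 18.3, 18.8 and 19.3 CPM with hairpin 2, and 22.8, 20.5 and 23.2 CPM in shGFP, so every knockdown library lay below every shGFP library and a large part of the transcript remained. The log2 fold change was -0.52 (SE 0.07, edgeR Benjamini-Hochberg adjusted p = 7.2e-08) with hairpin 1 and -0.24 (SE 0.07, edgeR adjusted p = 0.0060) with hairpin 2. With shGFP replicate 3 left out, hairpin 2 gave -0.20 and no longer passed (edgeR adjusted p = 0.054). Prostate luminal markers such as KLK3 were present, and their levels summed to 1794 to 1812 CPM in hairpin 1 libraries, 1646 to 1674 CPM in hairpin 2 libraries and 1416 to 1451 CPM in shGFP. Of these 8 markers 6 were called higher in the mean of both hairpins, all 8 were called higher with hairpin 1, and 5 were called higher and 2 lower with hairpin 2. Over all genes tested, 22.3%, 23.9% and 17.2% were called higher in these comparisons, and 18.5% lower with hairpin 2. Basal markers summed to 28.5 to 34.3, 29.4 to 33.1 and 28.7 to 30.1 CPM in the same order of groups, with 4 of 6 under 1 CPM. DST alone made up most of each sum, with means of 29, 28.9 and 27.2 CPM. KRT5, the defining basal keratin, was at 0. Leukocyte markers summed to 0.99 to 1.33, 1.13 to 1.73 and 0.684 to 1.28 CPM, endothelial markers to 0.0373 to 0.149, 0.0308 to 0.0471 and 0.0526 to 0.267 CPM, and fibroblast and muscle markers to 12.9 to 13.6, 12.4 to 15.0 and 11.8 to 12.7 CPM. CD3E, CDH5 and KDR were also at 0. In the mean of both hairpins no basal or leukocyte marker was called, and 2 of 5 tested fibroblast and muscle markers were called higher and 2 lower. The part of cell composition in the results was not tested, and in bulk RNA fewer cells of a kind and less RNA per cell cannot be told apart.

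S100 proteins are small and carry a pair of EF hands, the helix-loop-helix folds that hold calcium. Most form dimers, and calcium opens a groove through which the dimer binds target proteins such as annexins, myosins and p53. Some are also secreted and signal to other cells through the receptor RAGE, which the gene AGER encodes. Most of the human S100 genes lie together on the long arm of chromosome 1, in and beside the epidermal differentiation complex, and single members are widely used as tumour markers, S100P and S100A4 among them.

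By position, 8 of the 9 genes lie on chromosome 1 and S100P alone lies on chromosome 4 (GENCODE 29 on GRCh38). S100P (ENSG00000163993.7) spans 6693069 to 6697170 on the plus strand of chromosome 4. S100A10 (ENSG00000197747.9, 151982915 to 151994390) and S100A11 (ENSG00000163191.6, 152032506 to 152047907) are 38.1 kb apart on the minus strand of chromosome 1. The remaining 6 lie 1487 kb further on, within 96.8 kb, also on the minus strand. They are, in order, S100A6 (ENSG00000197956.10, 153534599 to 153536244), S100A4 (ENSG00000196154.12, 153543613 to 153550136), S100A2 (ENSG00000196754.13, 153561108 to 153567890), S100A16 (ENSG00000188643.11, 153606886 to 153613145), S100A14 (ENSG00000189334.9, 153614255 to 153616986) and S100A13 (ENSG00000189171.14, 153618787 to 153631360). S100A13 overlaps S100A1, which lies on the plus strand, over 3435 bases, and S100A4 overlaps S100A3 on its own strand over 2044 bases. S100A11 has processed pseudogenes, which can draw reads from it. The 8 that were listed held 3 counts in all. Whether reads shared with them were left out of both was not tested.

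The promoters of the 4 genes that were lower with both hairpins, and of S100A1, which was higher, are shown to let their start regions be compared. Each is 250 bases before to 50 bases after the transcript start, from RefSeq on GRCh38.p14, written 5′ to 3′ on the strand of the gene. These starts are those of RefSeq and are not always the outer ends of the GENCODE genes. All 9 genes matched an entry in the RefSeq table. Capitals mark matches, on either strand, to any of 5 motifs. They are the TATA box core TATAAA, the CAAT box with the letters CCAAT, the GC box with the letters GGGCGG, the AP-1 site with the letters TGANTCA and the core of a steroid receptor site with the letters AGAACA. The 5 windows are chr4:6693628-6693927 for S100P on the plus strand, chr1:153535942-153536241 for S100A6, chr1:151993810-151994109 for S100A10 and chr1:152036955-152037254 for S100A11 on the minus strand, and chr1:153628184-153628483 for S100A1 on the plus strand.
S100P: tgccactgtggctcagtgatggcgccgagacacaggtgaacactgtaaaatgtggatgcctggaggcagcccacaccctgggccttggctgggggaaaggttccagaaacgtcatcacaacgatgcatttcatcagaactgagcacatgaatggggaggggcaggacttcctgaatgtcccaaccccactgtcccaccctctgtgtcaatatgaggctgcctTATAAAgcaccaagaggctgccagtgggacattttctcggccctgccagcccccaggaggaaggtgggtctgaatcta
S100A6: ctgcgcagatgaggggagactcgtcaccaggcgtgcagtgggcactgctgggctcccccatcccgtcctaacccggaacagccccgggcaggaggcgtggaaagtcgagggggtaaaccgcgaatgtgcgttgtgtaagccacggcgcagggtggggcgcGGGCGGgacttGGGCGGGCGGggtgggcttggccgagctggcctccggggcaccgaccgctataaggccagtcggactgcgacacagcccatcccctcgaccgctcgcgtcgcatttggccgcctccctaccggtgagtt
S100A10: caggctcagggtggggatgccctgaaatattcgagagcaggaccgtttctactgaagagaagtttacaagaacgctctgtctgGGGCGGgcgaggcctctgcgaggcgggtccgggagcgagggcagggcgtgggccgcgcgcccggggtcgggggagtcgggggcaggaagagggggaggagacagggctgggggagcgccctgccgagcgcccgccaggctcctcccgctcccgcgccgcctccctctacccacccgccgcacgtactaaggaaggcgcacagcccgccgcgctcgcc
S100A11: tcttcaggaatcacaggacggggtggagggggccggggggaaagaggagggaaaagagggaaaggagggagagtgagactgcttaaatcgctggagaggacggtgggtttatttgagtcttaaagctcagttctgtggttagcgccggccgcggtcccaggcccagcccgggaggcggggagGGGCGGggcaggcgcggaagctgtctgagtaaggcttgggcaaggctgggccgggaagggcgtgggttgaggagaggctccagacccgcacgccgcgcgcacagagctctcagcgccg
S100A1: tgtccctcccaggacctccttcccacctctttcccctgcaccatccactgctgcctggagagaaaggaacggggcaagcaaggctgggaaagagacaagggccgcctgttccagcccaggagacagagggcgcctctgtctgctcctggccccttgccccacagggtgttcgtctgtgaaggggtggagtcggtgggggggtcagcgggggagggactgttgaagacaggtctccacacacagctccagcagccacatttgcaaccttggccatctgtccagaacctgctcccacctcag

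S100P had TATAAA at -28 to -23 from its start and no match to the other motifs. S100A6 had GGGCGG at -90 to -85, -79 to -74 and -75 to -70, of which the last pair overlap, S100A10 had it at -167 to -162 and S100A11 at -68 to -63, and none of these 3 had TATAAA. The S100A1 window held none of the 5 motifs. Of 35114 promoters of the same length, 11.5% held TATAAA, 45.0% GGGCGG, 34.6% CCAAT, 7.71% TGANTCA and 14.8% AGAACA. The matches are letters in these windows, and binding of any factor was not measured.

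Per kilobase of exonic length, S100A11 was the most abundant of the 9 transcripts in every group and S100A14 the least. The level of S100A11 was 174 ± 6.16 CPM per kb with hairpin 1, 156 ± 8.28 with hairpin 2 and 209 ± 2.5 in shGFP (SD, n = 3 each). S100A10 followed with 34.8 ± 1.70, 39.3 ± 3.0 and 54.4 ± 1.09 CPM per kb in the same groups, then S100A6 with 24.1 ± 0.503, 22.0 ± 2.31 and 30.8 ± 1.28, and S100P with 2.77 ± 0.365, 4.43 ± 0.320 and 11.4 ± 0.968 CPM per kb. S100A13, S100A4 and S100A2 lay between 0.609 and 1.95 CPM per kb on average, and S100A16 and S100A14 below 0.2. The order was the same with both CHD9 hairpins. In shGFP S100A4 and S100A13 changed places, but their libraries overlapped there, as they did with hairpin 2. S100A16 and S100A14 overlapped with hairpin 1, and the libraries of all other neighbours in the order stood apart within each group. Together the 9 genes summed to 198 to 212 CPM with hairpin 1, 188 to 213 CPM with hairpin 2 and 277 to 278 CPM in shGFP. S100A11 made up 57.1% to 57.5%, 52.0% to 53.8% and 50.8% to 51.8% of that sum.

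**Figure D1:**
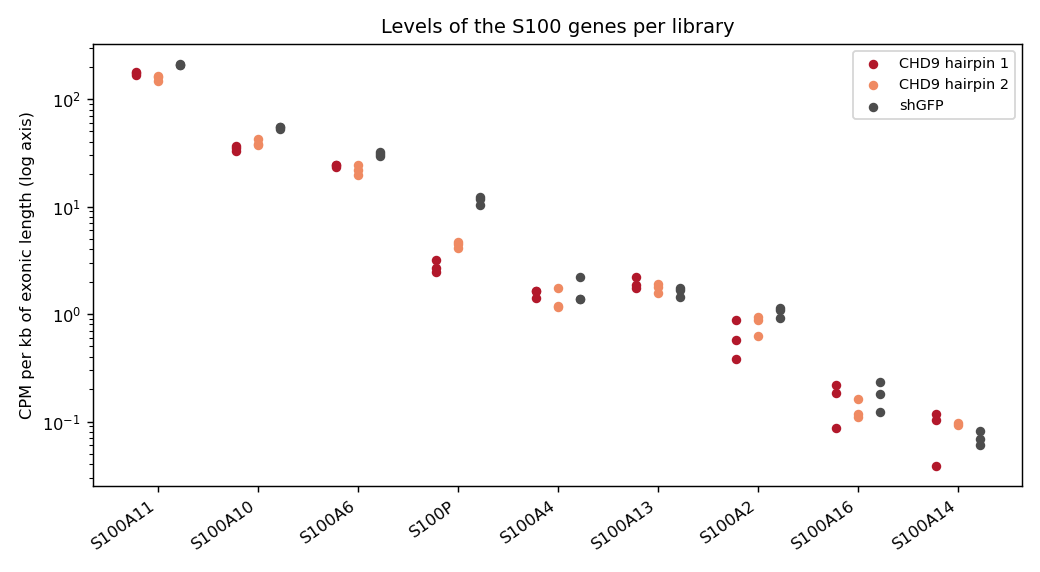
Level of each S100 gene in CPM per kb of exonic length (log axis) in every library, with CHD9 hairpin 1, CHD9 hairpin 2 and shGFP side by side and genes in the order of their shGFP means. S100A11 led at 209 CPM per kb in shGFP, S100A14 was lowest at 0.0704, and its single library without a count is not drawn.

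The count of each gene decides what can be said of it. Of the 9 genes, 7 passed the filter on low counts. S100A14, an S100 gene of epithelia, had 1, 3 and 4 counts with hairpin 1, 3, 4 and 0 with hairpin 2 and 2, 2 and 2 in shGFP. S100A16 had 3, 7 and 10 counts, 5, 9 and 4 counts and 4, 9 and 8 counts in the same groups. At these counts no difference was detectable for either gene, and whether reads shared with another copy lowered them was not tested. Both groups of knockdown libraries overlapped shGFP.

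Against the control hairpin, S100P, S100A6, S100A10 and S100A11 were lower with each CHD9 hairpin, S100A2 was lower with hairpin 1, and S100A4 and S100A13 stayed within or near the spread of the shGFP libraries. For 4 of the 9 genes all 6 knockdown libraries lay below all 3 shGFP libraries. The same held for 16.2% of the 16855 genes tested. In the edgeR fit over all genes 4 of the 7 tested members were called lower and 0 higher in the mean of both hairpins, where 23.2% of all genes were called lower and 22.3% higher. With hairpin 1, 5 were called lower and 0 higher, against 23.4% and 23.9% of all genes, and with hairpin 2, 4 were called lower and 0 higher, against 18.5% and 17.2%. Since the list was chosen with these comparisons known, nothing is read from the counts. The 7 genes had a median log2 fold change of -0.42 in the mean of both hairpins, and all genes tested had 0.00.

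**Figure D2:**
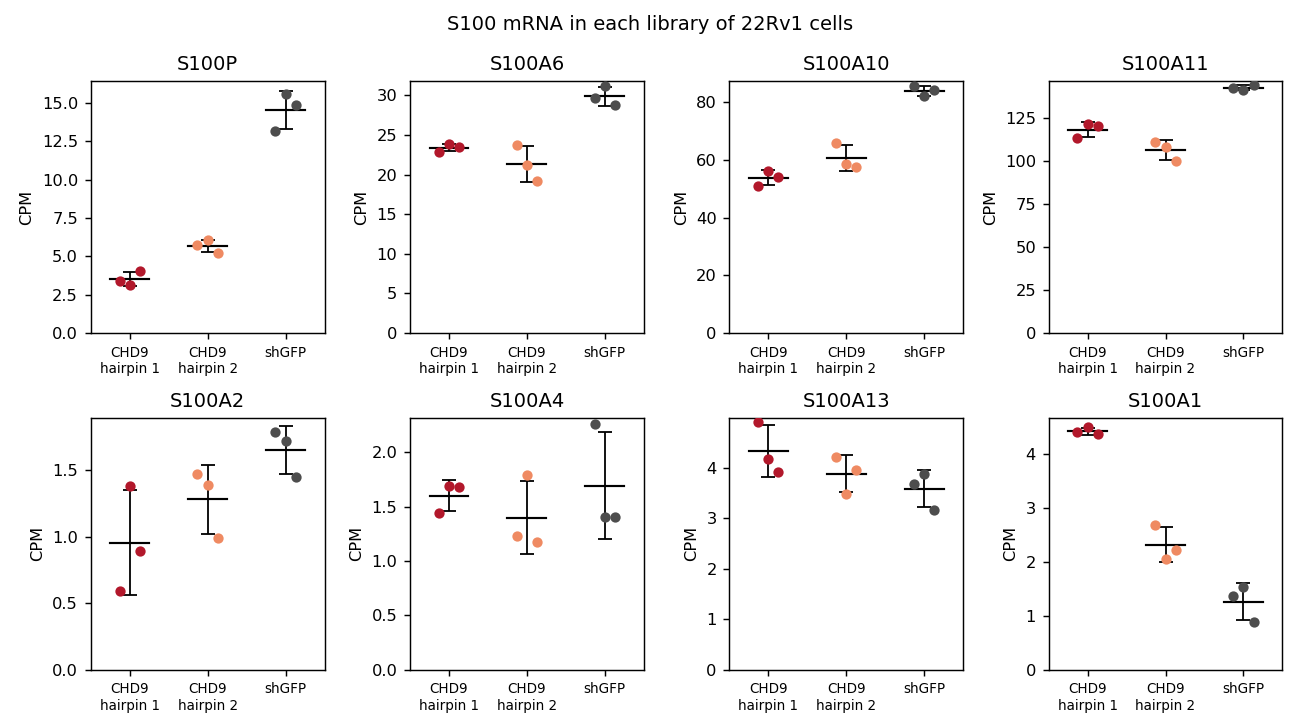
CPM of 7 S100 genes and of S100A1 in each library (points), with the mean and SD of each group (bars, n = 3), for CHD9 hairpin 1, CHD9 hairpin 2 and shGFP. S100P, S100A6, S100A10 and S100A11 lie below shGFP in all 6 knockdown libraries, while S100A1 lies above it.

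S100P encodes a protein that binds ezrin inside the cell and RAGE outside it. It stood at 3.42, 3.15 and 4.06 CPM with hairpin 1, 5.74, 6.04 and 5.23 CPM with hairpin 2, and 13.2, 15.6 and 14.9 CPM in shGFP. The groups did not overlap, and the hairpin 1 libraries were lowest. The hairpin 1 mean was 0.243 of the shGFP mean and the hairpin 2 mean 0.389 of it, or log2 fold changes of -2.03 (SE 0.12) and -1.36 (SE 0.11). It was the largest fold change among the 7 genes tested, in counts that ran from 69 to 390 per library.

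The 5 genes nearest to S100P in their pattern over the 9 libraries, among 11127 candidates with at least 5 CPM, were SOX9, COL5A2, DKK1, SEMA3C and TMEM45A. Likeness was the Euclidean distance between log2 CPM values, each set relative to the shGFP mean of its gene. SOX9, a transcription factor gene, was nearest at a distance of 0.445, with means of 11.3 CPM with hairpin 1, 16.6 CPM with hairpin 2 and 38.9 CPM in shGFP. COL5A2, a collagen chain gene, lay at 0.488 with 33.9, 49.4 and 114 CPM. The Wnt inhibitor gene DKK1 lay at 0.569 and the semaphorin gene SEMA3C at 0.571. TMEM45A, at 0.740, had log2 fold changes of -2.27 with hairpin 1 and -1.14 with hairpin 2. These genes were picked for their likeness, so no test applies to it.

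S100A10, also called p11, is an S100 protein that no longer binds calcium and joins annexin A2 at membranes. Its levels were 51.0, 56.2 and 54.1 CPM with hairpin 1, 65.9, 58.5 and 57.4 CPM with hairpin 2, and 85.4, 82.1 and 84.1 CPM in shGFP. All 6 knockdown libraries were lower than every control library. The log2 fold changes were -0.64 (SE 0.05) with hairpin 1 and -0.47 (SE 0.04) with hairpin 2.

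S100A11, a partner of annexin A1, is the most abundant transcript of the 9. It measured 113, 121 and 120 CPM with hairpin 1, 111, 108 and 99.7 CPM with hairpin 2, and 142, 141 and 144 CPM in shGFP. The knockdown groups lay below shGFP, and here the hairpin 2 libraries were lowest. The log2 fold change was -0.27 with hairpin 1 and -0.42 with hairpin 2, each with an SE of 0.03.

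S100A6, or calcyclin, binds the ubiquitin ligase adaptor that CACYBP encodes. It reached 22.9, 23.8 and 23.5 CPM with hairpin 1, 23.7, 21.2 and 19.2 CPM with hairpin 2, and 29.7, 31.2 and 28.8 CPM in shGFP. Both knockdown groups were below shGFP and overlapped each other. The log2 fold changes were -0.35 and -0.48, each with an SE of 0.07.

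S100A2, a gene of basal epithelial cells whose product binds p53, was a low transcript. It had 12, 31 and 24 counts with hairpin 1, 37, 45 and 21 counts with hairpin 2, and 34, 39 and 38 counts in shGFP. In CPM these were 0.594, 1.38 and 0.894, then 1.47, 1.39 and 0.989, and 1.79, 1.72 and 1.45. The hairpin 1 libraries lay below shGFP and the hairpin 2 libraries overlapped it. The log2 fold change was -0.77 (SE 0.28) with hairpin 1 and -0.34 (SE 0.27) with hairpin 2. Without hairpin 1 replicate 1, the lowest library, the hairpin 1 value was -0.55. The edgeR call with hairpin 1 is not read as a test, since the members were chosen with these differences known. It was lost without any of 4 single libraries, hairpin 1 replicate 1 or 3, or shGFP replicate 1 or 2.

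S100A4, which binds non-muscle myosin, is best known from metastasis models. It had 1.44, 1.69 and 1.68 CPM with hairpin 1, 1.23, 1.79 and 1.18 CPM with hairpin 2, and 2.26, 1.41 and 1.41 CPM in shGFP. All 3 groups overlapped. The log2 fold changes, -0.05 (95% interval -0.56 to 0.45) and -0.22 (-0.73 to 0.28), leave room for changes of either sign.

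S100A13 takes part in the release of FGF1 and interleukin 1 alpha from cells. It stood at 4.90, 4.17 and 3.91 CPM with hairpin 1, 4.20, 3.48 and 3.96 CPM with hairpin 2, and 3.68, 3.88 and 3.17 CPM in shGFP. The hairpin 1 libraries lay just above shGFP, the hairpin 2 libraries overlapped both, and the log2 fold changes were 0.27 (95% interval -0.04 to 0.58) and 0.12 (-0.20 to 0.43).

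**Figure D3:**
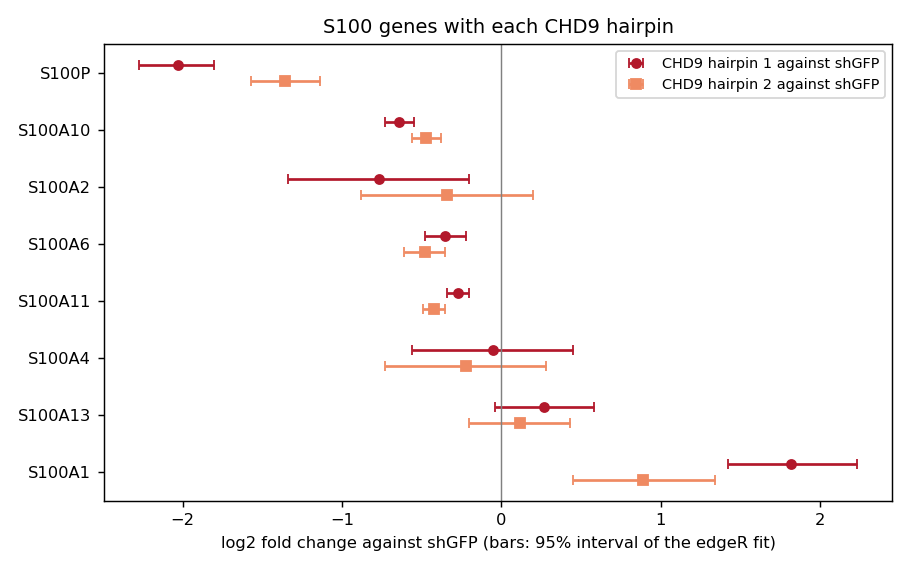
Log2 fold change of 8 S100 genes against shGFP with CHD9 hairpin 1 (circles) and CHD9 hairpin 2 (squares), with 95% intervals from the edgeR fit. S100P is lowest at -2.03 and -1.36, S100A1 highest at 1.82 and 0.89. The members were chosen with these differences known, so their intervals are a description and not a test.

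The CHD9 hairpins were compared with each other directly, which leaves the shGFP libraries out of the contrast. The choice of the members is taken not to have used this difference, but that is not recorded, and the choice did use the same hairpin libraries, so the p-values of members hold only under that assumption. Of the 7 tested members, 2 were called lower and 1 higher with hairpin 1 than with hairpin 2, where 13.6% of all genes were called lower and 15.6% higher. S100P was lower with hairpin 1 by a log2 difference of -0.68 (SE 0.13, 3.54 ± 0.467 against 5.67 ± 0.409 CPM, quasi-likelihood test of edgeR, Benjamini-Hochberg adjusted p = 7.1e-05). S100A10 was lower with hairpin 1 by -0.17 (SE 0.05, 53.7 ± 2.63 against 60.6 ± 4.63 CPM, edgeR adjusted p = 0.0034). That call was lost without hairpin 2 replicate 1, its highest hairpin 2 library (-0.11, edgeR adjusted p = 0.060), and the adjusted p over all its alternatives ran from 0.00084 to 0.060. S100A11 was higher with hairpin 1 by 0.16 (SE 0.04, 118 ± 4.19 against 106 ± 5.63 CPM, edgeR adjusted p = 0.00052). SDs are over n = 3 libraries each.

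The genes thus did not share an order of the hairpins. S100P and S100A10 were lower with hairpin 1, which left 15.4 ± 1.07 CPM of CHD9 mRNA, and S100A11 was lower with hairpin 2, which left 18.8 ± 0.464 CPM (SD, n = 3 each). For S100A6 the log2 difference between hairpin 1 and hairpin 2 was 0.13 (95% interval -0.01 to 0.27, edgeR adjusted p = 0.15). Without hairpin 2 replicate 1 it was 0.20 and passed the test (edgeR adjusted p = 0.031). The differences of S100A2 (-0.43, interval -1.01 to 0.15), S100A4 (0.17, interval -0.33 to 0.67) and S100A13 (0.16, interval -0.14 to 0.46) did not pass, and their intervals do not show that the hairpins act alike.

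Of the 12 other S100 genes, S100A1 alone had enough counts to be tested. For 9 of them no library held a count, which allows at most 0.0924 to 0.158 CPM in a library as far as counting error goes. A listed 0 does not show that a transcript was absent, since INTS3, near the S100 genes on chromosome 1, was listed at 0 as well, and whether reads shared with another copy of a gene set any of these zeros was not tested. These include S100A8 and S100A9, the calprotectin genes of myeloid cells, S100A7, S100A12 and S100G. S100A3 had a single count and S100B 2 counts over the 9 libraries.

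S100A1, best known from heart muscle, where its product acts on calcium release and uptake, rose with both CHD9 hairpins. It had 89, 101 and 117 counts with hairpin 1, 68, 67 and 47 counts with hairpin 2, and 26, 35 and 23 counts in shGFP. In CPM these were 4.41, 4.49 and 4.36, then 2.69, 2.06 and 2.21, and 1.37, 1.54 and 0.879. The 3 groups did not overlap, and each of the 6 knockdown libraries lay above every shGFP library, as for 15.5% of all genes tested. The log2 fold change was 1.82 (SE 0.20, edgeR Benjamini-Hochberg adjusted p = 2.6e-10) with hairpin 1 and 0.89 (SE 0.22, edgeR adjusted p = 0.0011) with hairpin 2. The hairpin 1 value was higher by 0.93 (SE 0.18, edgeR adjusted p = 5.1e-05). S100A1 was left off a list drawn up with the differences from shGFP known, and these p-values do not allow for that choice. S100A1 and S100A13 overlap on opposite strands, and the strand setting of the counting is not given in the sources used here, so reads in the overlap cannot be told apart. S100A13 moved by 0.27 and 0.12 on the log2 scale beside it, and its part in the S100A1 counts was not tested.

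Around the S100 genes, 34 other annotated genes start within 100 kb of a member, of which 13 were tested. In the mean of both hairpins 3 of the 13 were called higher, 1 lower and 9 were not called, where 22.3% of all genes were called higher and 23.2% lower, with a median log2 fold change of -0.03 against 0.00 over all genes. NPR1, the receptor for atrial natriuretic peptide, was called higher, with 8.41 ± 0.618 CPM in hairpin 1 libraries and 8.95 ± 0.486 CPM in hairpin 2 libraries, against 3.68 ± 0.437 CPM in shGFP (SD, n = 3 each, log2 fold change 1.22 in the mean of both hairpins, edgeR adjusted p = 1.0e-12). The other 2 that were called higher were TCHH, described with the fused-type genes, and a gene listed as ENSG00000170846 near S100P (0.10). The latter lost its call without shGFP replicate 3 (0.07, edgeR adjusted p = 0.13), and with hairpin 1 alone it was not called (0.09, edgeR adjusted p = 0.054). THEM4, a thioesterase gene near S100A10, fell by 0.19 (edgeR adjusted p = 2.0e-05). Its log2 fold change was -0.26 with hairpin 1 and -0.11 with hairpin 2 (edgeR adjusted p = 7.2e-07 and 0.026). The hairpin 2 call of THEM4 was lost under 5 of 15 alternatives. CHTOP, a gene beside S100A1, averaged 254 CPM in shGFP and had a log2 fold change of -0.03 that was not called (edgeR adjusted p = 0.29). INTS3, 96.7 kb from S100A13, was at 0 in all 9 libraries; it was named after its values were seen, and it encodes a subunit of the Integrator complex that cells generally use. The reason for that count was not tested. Between it and S100A13, CHTOP, SNAPIN, ILF2 and NPR1 had counts in every library, and so did ENSG00000272030 (7 to 16 counts). The other annotated genes lying wholly between them were at 0. These were a Y_RNA gene, RN7SL372P, GEMIN2P1 and MIR8083, by their names small RNA genes or pseudogenes.

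**Figure D4:**
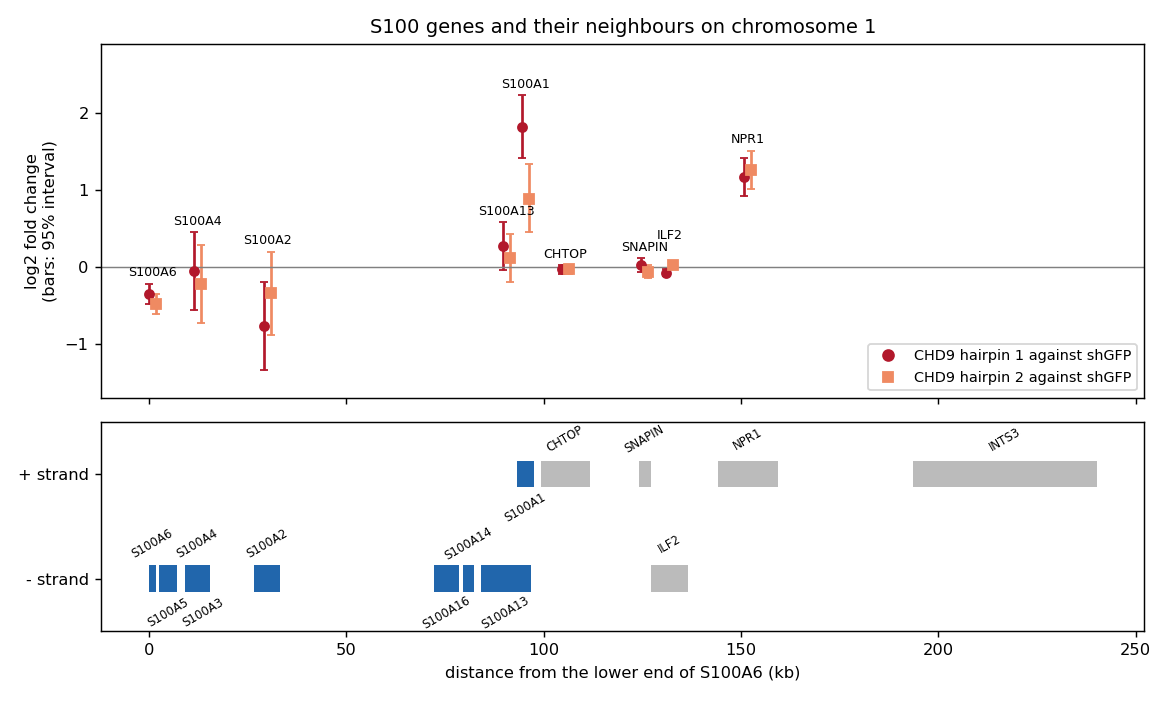
Map of the S100 genes and selected neighbours on chromosome 1 from S100A6 to INTS3 by strand (lower panel, S100 genes in blue, others in grey). The upper panel gives the log2 fold change against shGFP of each tested gene drawn, with 95% intervals. Circles are CHD9 hairpin 1 and squares CHD9 hairpin 2. ENSG00000272030, also tested and within this span, is not drawn. For members of the list the intervals are a description and not a test. S100A1 and NPR1 are higher, S100A6 lower, and CHTOP, between S100A1 and NPR1, lies near 0.

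S100 fused-type proteins such as trichohyalin and filaggrin share the S100 domain and lie beside the cluster. Of 7 such genes only TCHH, at 1.37 ± 0.364 CPM with hairpin 1, 0.890 ± 0.0873 CPM with hairpin 2 and 0.682 ± 0.0470 CPM in shGFP (SD, n = 3 each), had enough counts to be tested. Its log2 fold change was 0.99 with hairpin 1 (edgeR adjusted p = 0.0082) and 0.39 with hairpin 2, where it was not called (edgeR adjusted p = 0.39). In the mean of both hairpins it was 0.69 (edgeR adjusted p = 0.045). The call was lost under 11 of 13 alternatives, with an adjusted p of 0.026 to 0.13 over all of them, and was lost without any of the libraries except hairpin 1 replicate 3.

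Genes for binding partners and receptors of S100 proteins were tested as a list of 29, of which 20 had enough counts. In the mean of both hairpins 5 were called higher, 8 lower and 7 were not called, where 22.3% of all genes were called higher and 23.2% lower, with a median log2 fold change of -0.02 against 0.00 over all genes and a median size of 0.12 against 0.17. With hairpin 1 the counts were 6 higher and 8 lower, against 23.9% and 23.4% of all genes, and with hairpin 2 they were 3 higher and 5 lower, against 17.2% and 18.5%. The main partner of S100A10, ANXA2, was listed with few counts. It had 1, 1 and 7 counts with hairpin 1, 2, 7 and 0 counts with hairpin 2, and 3, 3 and 10 counts in shGFP. Whether reads shared with another copy of the gene lowered these counts was not tested, so they do not show that the transcript was scarce. AGER, the RAGE receptor gene, had at most 5 counts in a library. Neither could be tested.

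Among the annexins, ANXA1, the partner of S100A11, showed the largest change. It had 0.446, 0.888 and 0.782 CPM in hairpin 1 libraries and 0.872, 0.955 and 0.613 CPM in hairpin 2 libraries, against 1.74, 1.5 and 1.64 CPM in shGFP. Both knockdown groups lay below shGFP and overlapped each other, and the log2 fold change was -1.18 with hairpin 1 and -0.97 with hairpin 2 (edgeR adjusted p = 0.0012 and 0.0073). ANXA5 fell by 0.14 in the mean of both hairpins (SE 0.03), and ANXA6, at 99.8 ± 3.14, 106 ± 3.26 and 82.9 ± 2.56 CPM with hairpin 1, hairpin 2 and shGFP (SD, n = 3 each), rose by 0.31 (SE 0.03, edgeR adjusted p = 2.9e-11).

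AHNAK, a giant scaffold protein that binds the complex of S100A10 and annexin A2, rose by 0.38 with hairpin 1 (edgeR adjusted p = 3.7e-13) and had a value of 0.07 with hairpin 2 that did not pass (edgeR adjusted p = 0.079). The difference between the hairpins was 0.30 (edgeR adjusted p = 3.8e-10). HLTF, a helicase-like transcription factor known from mouse brain to bind the same complex, fell by 0.33 with hairpin 1 and by 0.08 with hairpin 2 (edgeR adjusted p = 3.8e-13 and 0.019). The hairpin 2 call of HLTF was lost without shGFP replicate 3 (-0.05) or hairpin 2 replicate 1 (-0.07). With hairpin 2 CACYBP, the S100A6 partner, had a value of -0.06 that was not called (edgeR adjusted p = 0.087). In the mean of both hairpins it fell by 0.12 (SE 0.02). MDM4, an inhibitor of p53, rose by 0.33 (SE 0.03). S100PBP, which encodes an S100P-binding protein, fell by 0.13 (SE 0.04, edgeR adjusted p = 0.015), and MYH9, the myosin bound by S100A4, by 0.06 (SE 0.02, edgeR adjusted p = 0.019). With hairpin 2 alone neither was called (-0.12 and -0.01, edgeR adjusted p = 0.067 and 0.67). In the mean of both hairpins the S100PBP call was lost without shGFP replicate 3, and the MYH9 call without hairpin 1 replicate 2 or without shGFP replicate 1 or 2, where its value was -0.05, -0.06 and -0.04.

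Other EF-hand calcium sensors gave a list of 24, of which 22 were tested. In the mean of both hairpins 6 were called higher, 5 lower and 11 were not called, near the 22.3% and 23.2% of all genes, with a median of -0.01. EFHD2, an actin-binding EF-hand protein gene, rose by 0.48 (SE 0.04) and had 89.9 ± 1.5 CPM in hairpin 1 libraries and 78.1 ± 2.30 CPM in hairpin 2 libraries, against 60.2 ± 3.89 CPM in shGFP (SD, n = 3 each). CAPNS1, the small subunit of calpains, rose by 0.32 (SE 0.02) and CHP1, a regulator of sodium-proton exchange, by 0.18 (SE 0.03). The neuronal sensor gene NCS1 rose by 0.13, with 0.23 for hairpin 1 and 0.02 for hairpin 2, where it was not called (edgeR adjusted p = 0.70). CETN2, a centrin of the centriole, fell by 0.34 (SE 0.05). In the mean of both hairpins the edgeR Benjamini-Hochberg adjusted p of these 5 genes was 0.00022 (NCS1) or smaller.

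**Figure D5:**
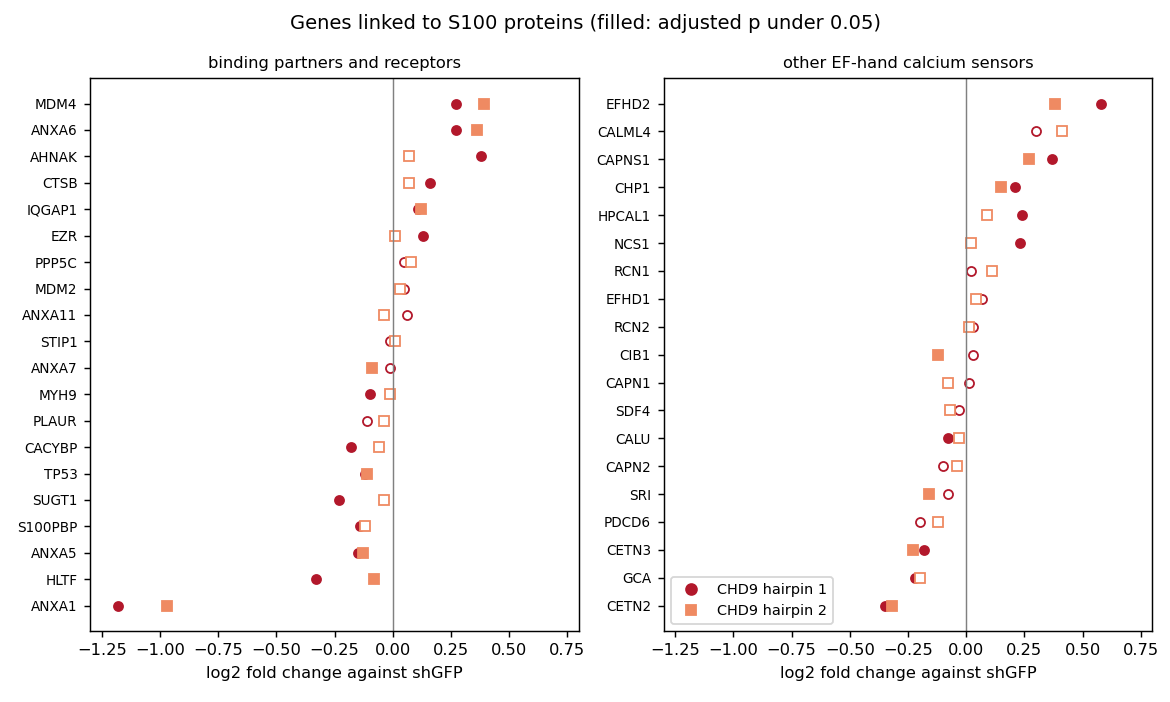
Log2 fold change against shGFP with CHD9 hairpin 1 (circles) and CHD9 hairpin 2 (squares) for 20 tested partners and receptors of S100 proteins (left) and 19 of the 22 tested EF-hand calcium sensors (right). Filled symbols passed the edgeR test at an adjusted p under 0.05; ANXA1 is lowest at -1.18 and -0.97, and EFHD2 is highest with hairpin 1 at 0.58.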

How the data were processed

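The authors deposited read counts per gene, neither normalised nor pooled, as 1 table with a column for each of the 9 libraries. Per the submitters' processing notes, Trim Galore, STAR, DESeq2 and hg38 were used. The sources used here give no version, read counter, strand setting or annotation release. Of 67071 gene identifiers, 60691 matched a symbol in a table of gene names or GENCODE 29, which also gave coordinates and exonic lengths.

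With edgeR 4.0.16 in R 4.3.3, the filterByExpr filter at a minimum count of 10 left 16855 genes. Libraries were scaled by TMM. All 9 libraries entered a single quasi-likelihood fit of the 3 group means. Benjamini-Hochberg adjustment was over all genes tested and a gene was called at an adjusted p under 0.05. A standard error is the fold change over the square root of its F value. The fit was also run on simulated data with far fewer changed genes than were called here. That run does not test the scaling or the error rate in these libraries. CPM use TMM-scaled totals, and counting error alone limits a value at low counts. Pairs of libraries within a group had chi-square values of 1.72 to 2.84 per degree of freedom, above sampling noise, so none was merged with another as a repeat deposit.

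The members and lists were chosen with earlier results of these data known. Named genes are the 9 members, CHD9, S100A1, up to 6 genes of each list, taken by smallest p over both hairpins, and ANXA2, ANXA1, AGER, CACYBP, S100PBP and MYH9. The alternatives were DESeq2 size factors, the DESeq2 1.42.0 Wald test, other filters, fits on the compared groups, a replicate block, and fits without each of the libraries in turn. Likeness to S100P used log2(CPM + 0.5). Some genes of the lists are counted but not reported here by name.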

Additional observations from a re-analysis of the deposited data

Results flagged for a closer look

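Several of the genes reported responded by different amounts to the CHD9 hairpins, as tested in edgeR for hairpin 1 against hairpin 2 (Benjamini-Hochberg adjusted). Among the S100 genes the log2 difference, hairpin 1 minus hairpin 2, was -0.68 for S100P (adjusted p = 7.1e-05), -0.17 for S100A10 (adjusted p = 0.0034), 0.16 for S100A11 (adjusted p = 0.00052) and 0.93 for S100A1 (adjusted p = 5.1e-05). CHD9 itself differed by -0.28 (adjusted p = 0.0024). The p-values of S100P, S100A10 and S100A11 hold only if the choice of members did not use this difference, which is not recorded. The S100A10 call was lost without hairpin 2 replicate 1 (-0.11, adjusted p = 0.060).

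Among the partners of S100 proteins the differences were -0.12 for MDM4, -0.25 for HLTF, 0.30 for AHNAK, -0.12 for CACYBP and -0.08 for MYH9. Among the EF-hand sensors they were 0.10 for CAPNS1, 0.20 for EFHD2 and 0.22 for NCS1, and beside S100A10 the difference of THEM4 was -0.15. The highest adjusted p among these 9 was 0.0050, for MYH9. The MDM4 difference was lost without hairpin 2 replicate 2 (-0.09, adjusted p = 0.052).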

How the results depend on the processing

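Each count of genes called stayed within 1.5 times its reported value under every alternative run. Leaving out each library gave 3274 to 3737 genes higher and 3351 to 3836 lower in the mean of both hairpins, where all libraries gave 3767 and 3908. With the replicate number as a block the counts were 3760 and 3909. Same-numbered libraries of different groups showed no shared deviation (correlations of -0.025 to 0.036 over 9 pairs, 3 of 9 libraries closest to their own number). No pairing by number was thus seen, and this measure cannot exclude a weak one. With the block S100A2 had a log2 fold change of -0.57 in the mean of both hairpins, given as a description. No value of a named gene changed sign where it was called in either fit. In all, 39 calls were lost and 19 gained, and 2571 values kept their side of the threshold. Some values that were not called did change sign, as for S100A4 in the mean of both hairpins (-0.26 to 0.1 over the alternatives). As a description, since the members were chosen with these differences known, the log2 fold changes in the mean of both hairpins ran over the alternatives from -1.75 to -1.64 for S100P, -0.45 to -0.38 for S100A6, -0.58 to -0.53 for S100A10 and -0.36 to -0.33 for S100A11. S100A1 kept its call in all 4 comparisons, with 1.59 to 2.01 for hairpin 1 and 0.66 to 1.08 for hairpin 2. S100A2, a member and so given as a description, ran from -1.11 to -0.55 with hairpin 1. Its call is not read as a test, and was lost under 5 of 15 alternatives, the DESeq2 Wald test among them. A fit on the compared groups alone does not exist for the mean of both hairpins, which uses all 3 groups. S100A14 and S100A16, with at most 10 counts in a library, did not pass the filter on low counts, and what set those counts was not tested.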
